A study of Mus musculus with 19 samples.

Results

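The comparison described here sets Foxc1 mutant embryos whose treatment is recorded as an RA diet (retinoic acid) against untreated controls, and asks which differences in open chromatin remain between them. Its 10 libraries were chosen by title from the 19 of the series and comprise 6 libraries of mutants on the RA diet and 4 libraries of controls. The mutants on the diet carry the genotype Foxc1 hith/LacZ, and the controls are Foxc1 WT with no diet. All are bulk ATAC-seq libraries of Prom1-positive cells taken magnetically from mouse forebrain at embryonic day 14, so the summits are those of a mixed cell population. Genotype and diet change together between these groups and cannot be told apart in this comparison. The 4 libraries titled as mutants without the diet and the 5 of controls on the diet entered the chaining of regions and an alternative fit. Regions and summit counts found here were also read back in them. The label of mutant 1 without the diet gives its genotype as Foxc1 WT, unlike its title. It is counted by its title below, among the 4 mutants. The labels name no embryo, litter, sex or preparation batch, so p-values measure the spread between these samples, which may be technical.

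Foxc1 is a forkhead transcription factor needed for the meninges that cover the forebrain. The hith allele is a hypomorph and the LacZ allele is an insertion that disrupts the gene. Meningeal fibroblasts make retinoic acid, which binds nuclear receptors of the RAR and RXR families in nearby cells and is removed by Cyp26 enzymes. Prom1 marks radial glia, the progenitors that line the ventricle and give rise to cortical neurons, in which Notch signalling and Sox2 hold back differentiation while proneural factors such as Neurog2 promote it. ATAC-seq cuts open DNA with a transposase, and a summit is the position of highest signal within a called peak.

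The deposited lists hold summits with a score, the −log10 q of the peak, and no read counts, so sequencing depth is unknown. To compare lists of unequal length, the 29112 best-scoring summits of each library were kept, the length of the shortest list, and these are called matched summits below. The label of the cells was checked at marker genes. Over all 21887 protein-coding genes, 40.7% had a matched summit within 1 kb of a gene end or start site in all 10 libraries and 42.6% in none. Of 28 radial glia and neural stem cell genes, 23 had such a summit in all 10 libraries and 0 lacked one in all 10. Of 25 intermediate progenitor and neurogenic genes, 13 had one in all 10 and 3 lacked one in all 10, so the check does not single out progenitors. In contrast, 10 of 12 erythroid genes, 11 of 14 microglia and macrophage genes, 11 of 16 endothelial genes and 7 of 10 mural genes lacked one in all 10. Of the 16 meningeal fibroblast genes, 5 lacked one in all 10, and the summed number of summits nearest to these genes was 21 to 27 in mutants on the RA diet and 19 to 21 in controls. Foxc1 itself had 1, 1, 1, 2, 1 and 3 nearest summits in the mutants on the RA diet and 1, 2, 1 and 1 in controls, which neither checks nor contradicts the genotype, because the alleles need not remove a peak. Summits on chromosome Y occurred in 2 of 6 libraries of mutants on the RA diet and in 1 of 4 control libraries.

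Mutants on the RA diet had shorter lists with lower-scoring summits than controls, while the share of the best summits that lay at genes was close in both. Deposited summits numbered 87470, 83640, 81221, 29112, 52848 and 48323 in mutants on the RA diet and 82201, 77593, 111835 and 122591 in controls. The mean and SD were 63769 ± 23749 in the 6 mutants on the RA diet and 98555 ± 22068 in the 4 controls. The groups overlapped, and the difference of -34786 did not pass a two-sided exact permutation test (exact p = 0.0667, adjusted p = 0.133 over 4 measures, n = 6 and 4). The median score of the matched summits was 45.5, 38.0, 40.8, 7.33, 24.2 and 22.6 in mutants on the RA diet and 53.1, 54.2, 91.0 and 111 in controls. Here the groups did not overlap, with means and SDs of 29.7 ± 14.3 in the 6 mutants on the RA diet and 77.3 ± 28.5 in the 4 controls. The exact permutation p was 0.00476, the smallest that 210 assignments can give (adjusted p = 0.0190). All results below therefore stand beside a difference in score, whose part in them was not tested except where a value is given. Matched summits within 1 kb of a gene end or start site made up 36.1% ± 2.65 (SD) in the 6 mutants on the RA diet and 36.3% ± 1.92 (SD) in the 4 controls, a difference that did not pass the same test (exact permutation p = 0.952).

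**Figure D1:**
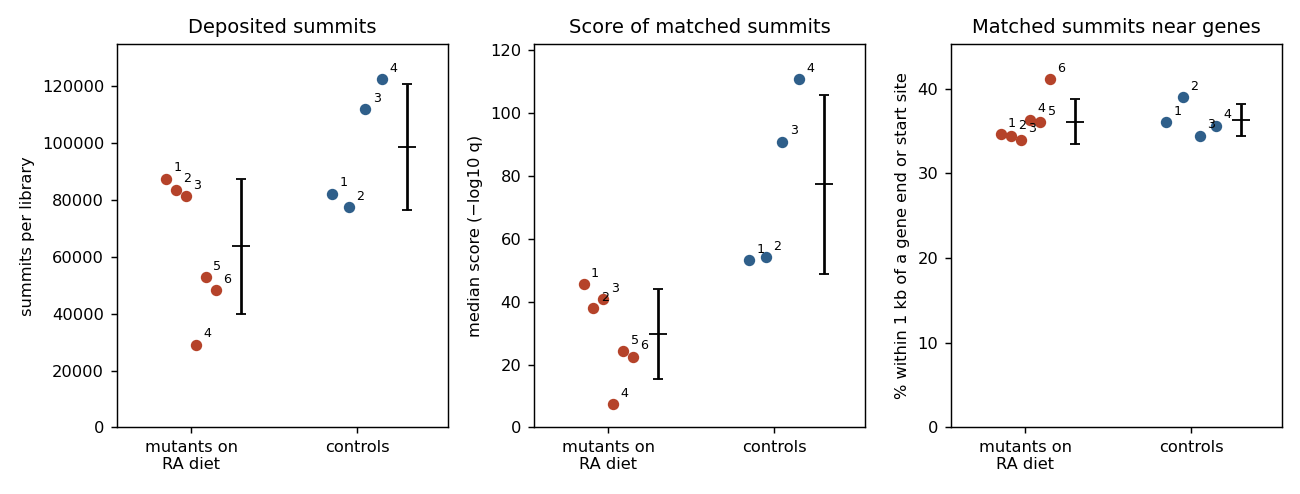
Deposited summits, median score (−log10 q) of the 29112 matched summits, and percentage of matched summits within 1 kb of a gene end or start site, for 6 mutants on the RA diet (left, red) and 4 controls (right, blue). Points are libraries with their number, and the black mark and bar give mean and SD. Scores do not overlap between the groups, whereas list length and share near genes do, and mutant 6 on the RA diet has the highest share, 41.2%.

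A large part of the open chromatin was common to all 10 libraries. Matched summits at most 200 bp apart were chained into regions, and 39323 regions had a summit in at least 2 of the 10 libraries. Of these, 15201 (38.7%) had one in all 10. The Jaccard index, the shared regions of a library pair divided by all regions of that pair, averaged 0.693 within mutants on the RA diet (15 pairs, 0.614 to 0.788), 0.768 within controls (6 pairs, 0.718 to 0.847) and 0.685 between the groups (24 pairs, 0.603 to 0.751). The mutants on the RA diet were thus about as unlike each other as they were unlike controls. Within-group similarity exceeded between-group similarity by 0.0288, which did not pass a one-sided exact permutation test (exact p = 0.0571, n = 6 and 4).

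Mutants 1, 2 and 3 on the RA diet formed the tightest part of their group, and mutant 4, with the shortest list, had a mean Jaccard index of 0.646 with its own group. Mutant 6 on the RA diet was closer to controls (mean 0.707) than to its own group (mean 0.643), and its best partner was control 2 (0.751). Without mutant 6 on the RA diet the separation was 0.0553 (exact permutation p = 0.0159, n = 5 and 4). Leaving out any other mutant on the RA diet also brought the p under 0.05, whereas leaving out a control did not, and the lowest separation over all 10 omissions was 0.00979. This library decides several counts below, and its values are given beside them.

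**Figure D2:**
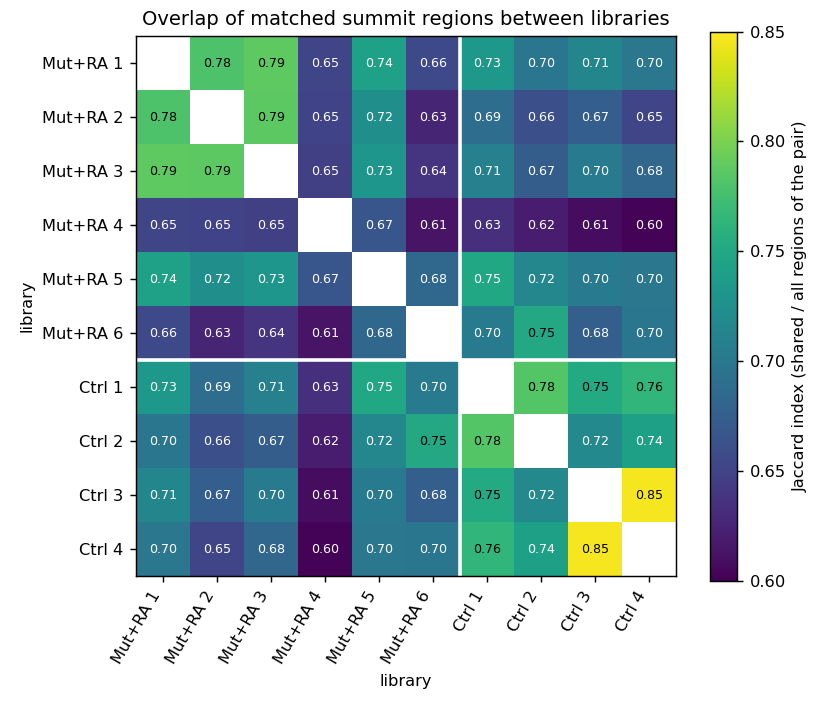
Jaccard index between the matched summit regions of each pair of libraries, with mutants on the RA diet (Mut+RA) before controls (Ctrl) and white lines between the groups. Mutants 1 to 3 on the RA diet share about as much with each other as controls do, and mutant 6 on the RA diet shares most with control 2.

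Region by region, presence of a matched summit did not separate the groups beyond multiple testing. A two-sided Fisher's exact test called 0 of 39323 regions at an adjusted p of 0.05, and 1233 regions (3.14%) had an unadjusted p below 0.05, of which 483 were more often occupied and 750 less often occupied in mutants on the RA diet. The smallest p that 6 against 4 libraries can give is 0.00476, so at least 3746 regions (9.53%) would have to separate completely before any could be called. Complete separation was rarer. A summit in 6 of 6 mutants on the RA diet and 0 of 4 controls was found in 55 regions (0.140% of those tested), and the opposite, in 0 of 6 mutants on the RA diet and 4 of 4 controls, in 121 regions (0.308%). Without mutant 6 on the RA diet these counts were 293 and 239. With libraries of similar list length only, mutants 1, 2 and 3 on the RA diet against controls 1 and 2, they were 1666 and 1434. Complete separation is easier to reach with fewer libraries, so these counts cannot be set directly against those from 10. Leaving out mutant 4 on the RA diet gave 83 with a summit in all mutants on the diet and no control, leaving out control 1 gave 102 and 219, leaving out control 2 gave 91 and 255, and leaving out control 3 gave 184 of the second kind.

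**Figure D3:**
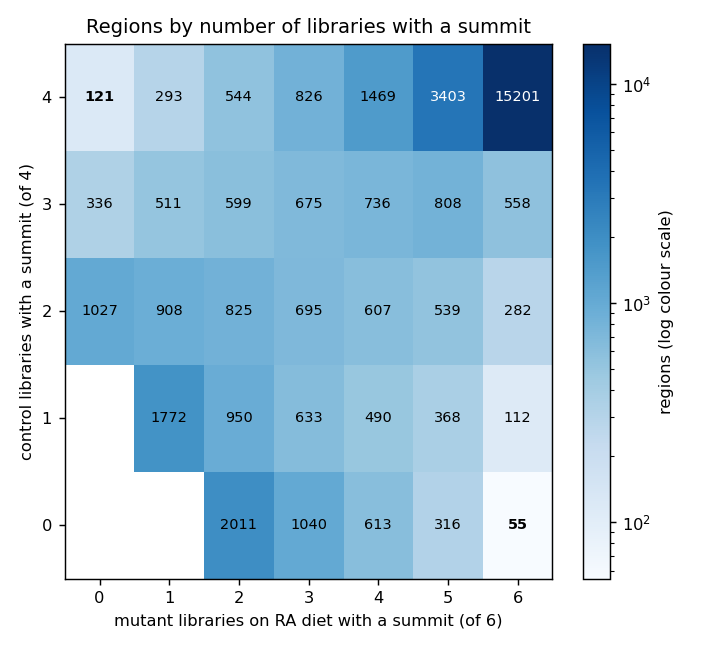
Number of regions by how many of 6 mutants on the RA diet (horizontal axis) and how many of 4 controls (vertical axis) have a matched summit, on a log colour scale. The corner with all 10 libraries holds 15201 regions, and the corners of complete separation, in bold, hold 55 and 121.

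Absence of a matched summit was often not absence of a peak. Of the library and region combinations in which a control lacked a matched summit at one of the 55 regions, 74.5% had a lower-ranked deposited summit in the region and 93.6% had a deposited summit within 1 kb. For the 121 regions that mutants on the RA diet lacked, these shares were 38.2% and 66.7%, in shorter lists. Few members of either set lay at gene ends or start sites. Of the 55 regions 6 (10.9%) and of the 121 regions 5 (4.13%) were within 1 kb of a gene end or start site, against 31.6% of all regions tested. Inside the span of their nearest gene lay 17 (30.9%) and 59 (48.8%), against 49.2% of all. All regions tested include the 15201 with a summit in all 10 libraries, which cannot separate. These shares therefore compare separated with mostly unseparable or partly shared regions, and do not by themselves describe the group difference. In 7 of the 55 regions no control had a deposited summit of any rank, and in 13 of the 121 no mutant on the RA diet had one. Within 1 kb of the region there was none of any rank in 3 and 2 regions, and these 5 are the least dependent on rank.

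The 3 regions with a summit in every mutant on the RA diet and no control summit within 1 kb lay nearest to Neurog2, Map1b and Edn2. The Neurog2 region (chr3:127634228-127634333, GRCm38) is inside the gene span, 1144 bp after the start site. Neurog2 is the proneural transcription factor of dorsal forebrain progenitors. The rank percentile of the summit within its library's deposited list, where 100 is the best score, was 83.5, 69.7, 81.3, 56.7, 80.1 and 92.4 in the mutants on the RA diet, and 0 of 4 controls had a summit although their lists were longer on average. Outside the comparison it was also matched in 3 of 5 controls on the RA diet and 3 of 4 mutants without the diet. The region therefore was not restricted to mutants on the diet, and the controls were the group without it.

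The Map1b region (chr13:99516598-99516712) lies at the start site of Map1b, which encodes a microtubule-associated protein of growing neurons. Its summits had rank percentiles of 75.0, 80.5, 79.9, 51.9, 76.9 and 75.2 in mutants on the RA diet, and no control had one. It was matched in 4 of 5 controls on the RA diet and 3 of 4 mutants. Summits of the mutants on the diet fell 60 to 110 bases before the start site. The promoter is shown because it carries the only start-site region of the comparison with no control summit nearby at any rank. It is taken from RefSeq (GRCm38.p6, chr13:99516553-99516852, minus strand) and runs from 250 bases before the start site to 50 after it, with capitals from 10 bases outside the first summit of these 6 libraries to 10 bases outside the last.
Map1b: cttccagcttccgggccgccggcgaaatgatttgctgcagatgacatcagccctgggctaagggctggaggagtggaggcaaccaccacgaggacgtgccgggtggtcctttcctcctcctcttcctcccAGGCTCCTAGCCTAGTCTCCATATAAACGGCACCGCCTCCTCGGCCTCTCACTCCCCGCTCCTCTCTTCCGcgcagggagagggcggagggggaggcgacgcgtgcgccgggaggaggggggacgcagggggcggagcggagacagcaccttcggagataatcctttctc
The letters TATAAA, the TATA box core, stand in the capitals from 99 bases before the start site. They occur on either strand in 12.6% of 21263 RefSeq promoters of this length. A retinoic acid receptor half-site (AGGTCA, in 14.7% of promoters), an RBPJ core (TGGGAA, 24.5%), an E-box (CAGCTG, 15.6%) and a SOX core (ACAAAG, 16.8%) were searched on both strands and do not occur in this window.

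The Edn2 region (chr4:120190123-120190184) lies outside genes, 22793 bp from the nearer end of Edn2, which encodes the peptide endothelin 2. Its rank percentiles were 75.9, 71.5, 77.5, 46.3, 58.9 and 84.2 in mutants on the RA diet, with no control summit. All 5 controls on the RA diet had it too, against 2 of 4 mutants. A region in Vcan, which encodes the matrix proteoglycan versican, was found in few libraries of the other groups. It lies in the gene 2998 bp after the start site (chr13:89739430-89739598). It was matched in all 6 mutants on the RA diet (rank percentile 42.4 to 75.9), in 0 of 4 controls, in 0 of 5 controls on the RA diet and in 1 of 4 mutants. Of the 4 controls, 3 had another summit within 1 kb of it. A Gli3 intragenic region (chr13:15550221-15550395) was matched in all mutants on the RA diet, at rank percentiles of 84.9, 85.5, 82.6, 45.0, 45.3 and 43.9. Controls 1, 3 and 4 had a summit there that was not among their matched ones, at 55.1, 70.6 and 75.4, and control 2 had none. The percentiles overlap between the groups, but they are taken over lists of unequal length. By position in the list, every matched summit is among the best 29112 of its library and no unmatched one is. Gli3 encodes a zinc finger effector of Hedgehog signalling.

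Regions with a summit in every control included those near Mrpl23 and Cfl2, with no summit of any rank within 1 kb in any mutant on the RA diet. Mrpl23 encodes a protein of the mitochondrial ribosome, and its region (chr7:142538140-142538145, within the gene) had rank percentiles of 74.1, 73.6, 81.5 and 78.4 in controls. It was matched in 1 of 5 controls on the RA diet and in mutants 1 and 2 but not in mutants 3 and 4. The Cfl2 region (chr12:54830746-54830802), 28041 bp from the gene for the actin-binding protein cofilin 2, had percentiles of 78.3, 72.6, 75.2 and 81.1 in controls. Again mutants 1 and 2 and 1 of 5 controls on the RA diet had it. The Cfl2 region was picked after its values were seen. Among the regions of best rank were 3 more in which no mutant on the RA diet had a summit of any rank. The region nearest to Serpinb8, a serpin gene 572617 bp away (chr1:108181552-108181639), had ranks of 72.1, 72.0, 81.2 and 88.5 in controls and was matched in 4 of 5 controls on the RA diet and 1 of 4 mutants. One within Nmnat2, which encodes an enzyme of NAD synthesis in neurons (chr1:153014825-153014899), ranked at 75.8, 66.3, 84.3 and 86.3 in controls and was matched in 3 of 5 controls on the RA diet and 2 of 4 mutants. One 91009 bp from Cstad (chr2:30699946-30699962) ranked at 74.2, 70.1, 80.3 and 83.0 in controls and was matched in 0 of 5 controls on the RA diet and 2 of 4 mutants. A deposited summit within 1 kb was present in 6, 5 and 3 of 6 mutants on the RA diet at these regions.

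Of the 121 regions that mutants on the RA diet lacked, 6 (4.96%) had a gene of one of the lists used here as nearest gene within 100 kb, against 2.70% of all regions tested. Of the 55 regions with the opposite pattern, 2 (3.64%) did. These shares were not tested, and the share over all regions includes those with a summit in every library, which cannot separate. A region 23689 bp from Neurod4, a neuronal differentiation factor, was matched in 4 of 4 controls and in 0 of the other 15 libraries (chr10:130244439-130244487). Controls had it at percentiles of 64.8, 66.6, 78.6 and 80.4. No mutant on the RA diet had a deposited summit of any rank in it, but 4 of the 6 had a deposited summit within 1 kb. Mutant 1 and controls 2 and 4 on the RA diet had a summit in it that was not among their matched ones. A region within Bmpr1a (chr14:34453901-34454042), the gene of a BMP receptor, was matched in 4 of 4 controls, 4 of 4 mutants and 5 of 5 controls on the RA diet, and in 0 of 6 mutants on the RA diet. Of these 6, 4 had a lower-ranked summit in it, at 43.8 to 64.2, against 66.2 to 86.8 in controls. The region near Elovl4, which encodes a fatty acid elongase, was similar, with 4 of 4 mutants and 4 of 5 controls on the RA diet, but no mutant on the RA diet had a summit in it at any rank (chr9:83727646-83727660). This region is only 15 bp wide. Within 1 kb of it, 4 of the 6 mutants on the RA diet had a deposited summit, and 1 had a matched one. A region in Stra6, the gene of the receptor that takes up retinol, lies within the gene span, 1928 bp from its nearer end (chr9:58065678-58065764). The nearest listed start site is not one of Stra6 but that of Ccdc33, 36504 bp away. The Stra6 region ranked at 74.0, 72.5, 79.2 and 81.0 in controls, while mutants 1, 3 and 5 on the RA diet had a summit there at only 40.3, 34.6 and 38.7 and the other 3 had none. A single region near Lhx5 and a pair at Nfia, both genes of forebrain transcription factors, completed the 6 with a listed nearest gene within 100 kb.

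At 3 places a region present in all mutants on the RA diet and one present in all controls lay within 1 kb of each other, so that both groups had a peak there with its summit at another position. The highest-ranked stood at the start of Ints7, which encodes a subunit of the Integrator complex, and both of its positions are inside that gene. The best summit lay 297, 411, 424, 417, 417 and 410 bp further along the chromosome in mutants on the RA diet than in controls, where all 4 summits fell on the same base (chr1:191575660). This base is 24 bases after the Ints7 start site. Ranks were 96.1 to 99.2 in mutants on the RA diet and 98.6 to 99.2 in controls, so the peak was among the strongest in every library. Controls 2 and 3 on the RA diet and mutants 1 and 2 shared the controls' base, and the other 5 libraries of those groups had the summit 410 to 424 bp away. The Ints7 promoter is shown to place the controls' summit (RefSeq, GRCm38.p6, chr1:191575386-191575685, plus strand, 250 bases before the start site to 50 after). Capitals run from 10 bases before that summit to 10 after.
Ints7: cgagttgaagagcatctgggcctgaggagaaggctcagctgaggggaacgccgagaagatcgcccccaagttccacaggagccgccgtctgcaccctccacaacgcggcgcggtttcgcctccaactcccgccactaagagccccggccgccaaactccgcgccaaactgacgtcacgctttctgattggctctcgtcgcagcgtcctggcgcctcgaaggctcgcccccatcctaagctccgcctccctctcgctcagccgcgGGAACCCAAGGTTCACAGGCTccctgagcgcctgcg
Of the motifs named above this window holds only the E-box CAGCTG, at position -215 from the start site.

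Near Pck1, the gene of the gluconeogenic enzyme PEPCK, the best summit lay 597 to 679 bp along the chromosome in mutants on the RA diet, against -12 to 13 bp in controls, both measured from the middle of the controls' region (chr2:173173619-173173644). Within Fstl5, which encodes a follistatin-like protein, it lay at 679 to 797 bp in mutants on the RA diet, against -89 to -76 bp in controls (middle of chr3:76467470-76467649). In these 3 places no library of one group had its best summit where the other group had it. The other groups were mixed at each of them.

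Start sites, too, showed few clean differences. Of 11951 genes with a matched summit within 1 kb of a start site (or of a gene end, where no start site was at hand) in at least 2 libraries, 8908 had one in all 10. Fisher's exact test called 0 genes after adjustment, and 41 had an unadjusted p below 0.05, of which 21 were more often and 20 less often occupied in mutants on the RA diet. As for regions, the smallest p that this test can give with 6 against 4 libraries is 0.00476. Far more genes than here would have to separate completely before any could be called, so the absence of calls does not show that start sites were alike. A summit in 6 of 6 mutants on the RA diet and 0 of 4 controls was found for 6 genes (0.0502%), Tmem159, Syt16, Fam50b, Map1b, Zic2 and Zfp185. The opposite was found for 0 genes (0%). The count over both directions was 18 without mutant 6 on the RA diet, 10 without mutant 3 on the RA diet or control 3, and 11 without control 1 or control 2, and with all deposited summits 31. Fewer libraries again make complete separation easier to reach.

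For Map1b no control had a deposited summit in this window, as described above. For the others, controls had summits that ranked too low to be matched, except control 2 at Zic2. At Fam50b ranks were 89.9, 84.0, 79.9, 55.6, 63.2 and 60.4 in mutants on the RA diet and 61.2, 50, 60.6 and 61.0 in controls. It lies 2.93 Mb from Foxc1 on chromosome 13 and, of the 8 separated regions on that chromosome, is the nearest to it. At Syt16, a gene of the synaptotagmin family, ranks were 76.0, 79.5, 70.2, 31.6, 62.1 and 51.8 in mutants on the RA diet and 56.4, 55.5, 74.0 and 67.0 in controls. These ranks overlap. A longer list sets a higher rank for a summit to be matched, and the longest lists were those of controls 3 and 4. Controls 1 and 2 had 82201 and 77593 summits. Mutants 1, 2 and 3 on the RA diet had similar numbers (87470, 83640 and 81221). The part of list length at this gene was not tested. At Tmem159 the percentiles also overlapped, with up to 70.5 in mutants on the RA diet and 55.7 to 69.5 in controls. Zic2 encodes a zinc finger factor of the meninges and forebrain, and its 6 summits were not at a single site. At one gene end ranks were 73.1, 72.2, 68.4, 18.2 and 45.3 in mutants 1 to 5 on the RA diet and 40.4, 26.1 and 32.1 in controls 1, 3 and 4, whereas mutant 6 on the RA diet had its summit at the other end, at 81.6.

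Zfp185 encodes an actin-associated protein with a LIM domain. Its summits lay 74 to 138 bases before the start site in mutants on the RA diet, at ranks of 75.2, 68.6, 65.1, 44.6, 47.5 and 73.1. Controls had summits in the same window that were not among their own matched ones, at ranks of 52.4, 61.9, 67.8 and 69.7. As percentiles of lists of unequal length, these ranks overlap between the groups. Only the matched ones are among the best 29112 summits of their library. Its promoter is shown beside that of Map1b because all 6 summits again fall inside it (RefSeq, GRCm38.p6, chrX:72987089-72987388, plus strand, capitals as for Map1b).
Zfp185: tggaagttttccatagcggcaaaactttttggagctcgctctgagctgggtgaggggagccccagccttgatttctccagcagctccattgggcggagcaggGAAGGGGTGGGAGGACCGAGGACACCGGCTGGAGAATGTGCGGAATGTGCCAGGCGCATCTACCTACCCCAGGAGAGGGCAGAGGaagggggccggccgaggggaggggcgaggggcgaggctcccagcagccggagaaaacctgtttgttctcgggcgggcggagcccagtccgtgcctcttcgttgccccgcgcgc
None of the 5 motifs occurs in this window.

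The separated regions were then read in the groups that carry either the diet or the mutation. The 55 regions of mutants on the RA diet had a matched summit in 18, 43, 48, 49 and 30 cases in controls 1 to 5 on the RA diet and in 11, 4, 48 and 28 cases in mutants 1 to 4. The means and SDs were 68.4% ± 24.2 in the 5 controls on the RA diet and 41.4% ± 35.7 in the 4 mutants. Their difference of 27.0 percentage points did not pass a two-sided exact permutation test (exact p = 0.206, adjusted p = 0.357 over both directions, n = 5 and 4). The 121 regions of controls had one in 46, 29, 37, 35 and 45 cases in controls 1 to 5 on the RA diet and in 86, 101, 16 and 30 cases in mutants 1 to 4. Means and SDs were 31.7% ± 5.89 in the 5 controls on the RA diet and 48.1% ± 34.3 in the 4 mutants, a difference of -16.4 points (exact permutation p = 0.357, n = 5 and 4). Every control on the RA diet thus held at most 38.0% of these 121 regions. Mutants 1 and 2 held few of the 55 and most of the 121 regions. Mutant 3 held 87.3% and 13.2% of them, and mutant 4 lay between, with 50.9% and 24.8%. Median scores of the matched summits were 88.8 and 105 in mutants 1 and 2 and 34.9 and 10.7 in mutants 3 and 4. The division between mutants 1 and 2 and mutants 3 and 4 thus goes with score, whose part in it was not tested. The label of mutant 1 gives its genotype as Foxc1 WT, unlike its title. Without it the differences were 19.9 and -8.76 points (exact permutation p = 0.411 and 0.732, n = 5 and 3). Without mutant 2 they were 15.6 and -4.63 points (adjusted exact permutation p = 0.821 for both), and without mutant 3 they were 42.3 and -28.0 points (adjusted exact permutation p = 0.0893 for both). With the regions chosen without mutant 6 on the RA diet they were 21.9 and -10.8 points, and with all deposited summits 2.35 and -18.2 points.

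**Figure D4:**
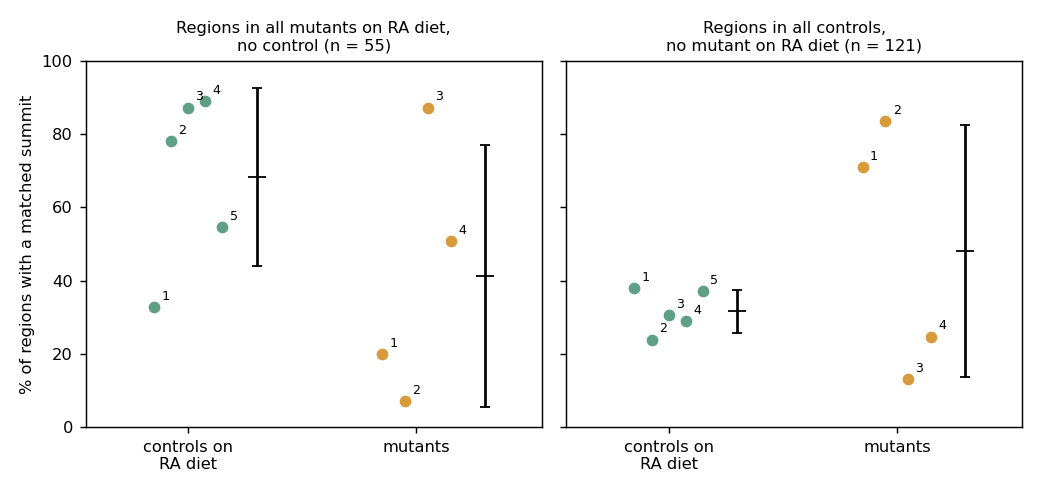
Percentage of the 55 regions with a summit in all mutants on the RA diet and no control (left panel) and of the 121 with the opposite pattern (right panel) that have a matched summit in each control on the RA diet (green) and each mutant (orange). Points are numbered libraries, and black marks give mean and SD (n = 5 and 4). Mutants 1 and 2 sit apart from mutants 3 and 4 in both panels.

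To describe loci rather than single regions, each matched summit was counted for the protein-coding gene whose start or end was nearest, up to 100 kb away. Of 7020 genes tested with limma on log2(summits + 0.5), 0 passed an adjusted p of 0.05 (lowest adjusted p = 0.0896), 45 passed 0.1, and at an unadjusted p below 0.05 mutants on the RA diet had more summits at 327 genes (4.66%) and fewer at 456 (6.50%). The median log2 difference over all genes was -0.04. Log2 differences are on the scale of summits plus 0.5 and understate changes of genes with few summits. Complete separation, every mutant on the RA diet above every control, was seen for 19 genes (0.271%), and every one below for 41 (0.584%). Without mutant 6 on the RA diet limma called 23 genes, 14 of them with more summits, while without control 2 it called 5 and without control 1 it called 1.

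The gene with the lowest p among those with more summits was Sim2, which encodes a bHLH-PAS transcription factor. It had 1, 2, 2, 3, 1 and 2 summits in mutants on the RA diet and 0 in each control (log2 difference 2.16, SE 0.37, adjusted p = 0.0896 by limma, a value that depends on the pseudocount because controls are at 0). Slit2, whose product repels growing axons, had 6, 5, 6, 6, 5 and 3 in mutants on the RA diet and 2, 3, 2 and 1 in controls (log2 difference 1.21, SE 0.23, limma adjusted p = 0.0896). The groups met only at 3 summits, in mutant 6 on the RA diet and control 2. Without that mutant Slit2 was among the genes called (log2 difference 1.34, limma adjusted p = 0.00740). Epb41l3, which encodes a membrane-cytoskeleton linker, had 6, 6, 5, 6, 6 and 5 in mutants on the RA diet and 3, 4, 4 and 2 in controls, with no overlap. Stk39, a kinase gene, had 5, 5, 5, 4, 4 and 3 in mutants on the RA diet and 2, 3, 2 and 2 in controls, and was called without mutant 6 on the RA diet (log2 difference 0.90, limma adjusted p = 0.0197). The ion channel genes Kcnb2 and Cacna1b had 2 to 3 summits in mutants on the RA diet, against 0 to 1 and 1 in controls. Gm715, Nudt4, Ism1, Cnn3, Mbtps2 and Nkx1-1 completed the 12 leading genes, each with 1 to 5 summits in mutants on the RA diet and 0 to 2 in controls.

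Among genes with fewer summits, the one with the lowest p was Cstad. It had 5, 5, 4, 7, 6 and 8 summits in mutants on the RA diet and 10, 10, 12 and 12 in controls, without overlap (log2 difference -0.89, SE 0.16, limma adjusted p = 0.0896). Ccnd2, the gene of cyclin D2, which drives cortical progenitors through G1, had 3, 2, 2, 3, 3 and 4 in mutants on the RA diet and 6, 6, 5 and 5 in controls (log2 difference -0.87, SE 0.17, limma adjusted p = 0.0896). Both were called without mutant 6 on the RA diet (limma adjusted p = 0.00740 for Cstad and 0.0141 for Ccnd2). Stra6 had 2, 2, 1, 1, 2 and 2 in mutants on the RA diet and 4, 4, 3 and 4 in controls (means 1.67 and 3.75, limma adjusted p = 0.0896). Controls on the RA diet had 2 to 3 and mutants 1 to 4 at this gene. Bmpr1a had 1, 1, 1, 1, 2 and 1 in mutants on the RA diet and 3, 3, 2 and 3 in controls, and the groups met at 2. Mutants without the diet and controls on it had 2 to 3, so among the groups the mutants on the diet had the lowest mean, 1.17 against 2.50 to 2.80. Ypel5, Lrrc30, Rin2, Dysf, Mrps22, Ube2ql1, 0610040J01Rik and Camsap2 completed these 12, with 1 to 2 summits in mutants on the RA diet and 2 to 5 in controls.

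**Figure D5:**
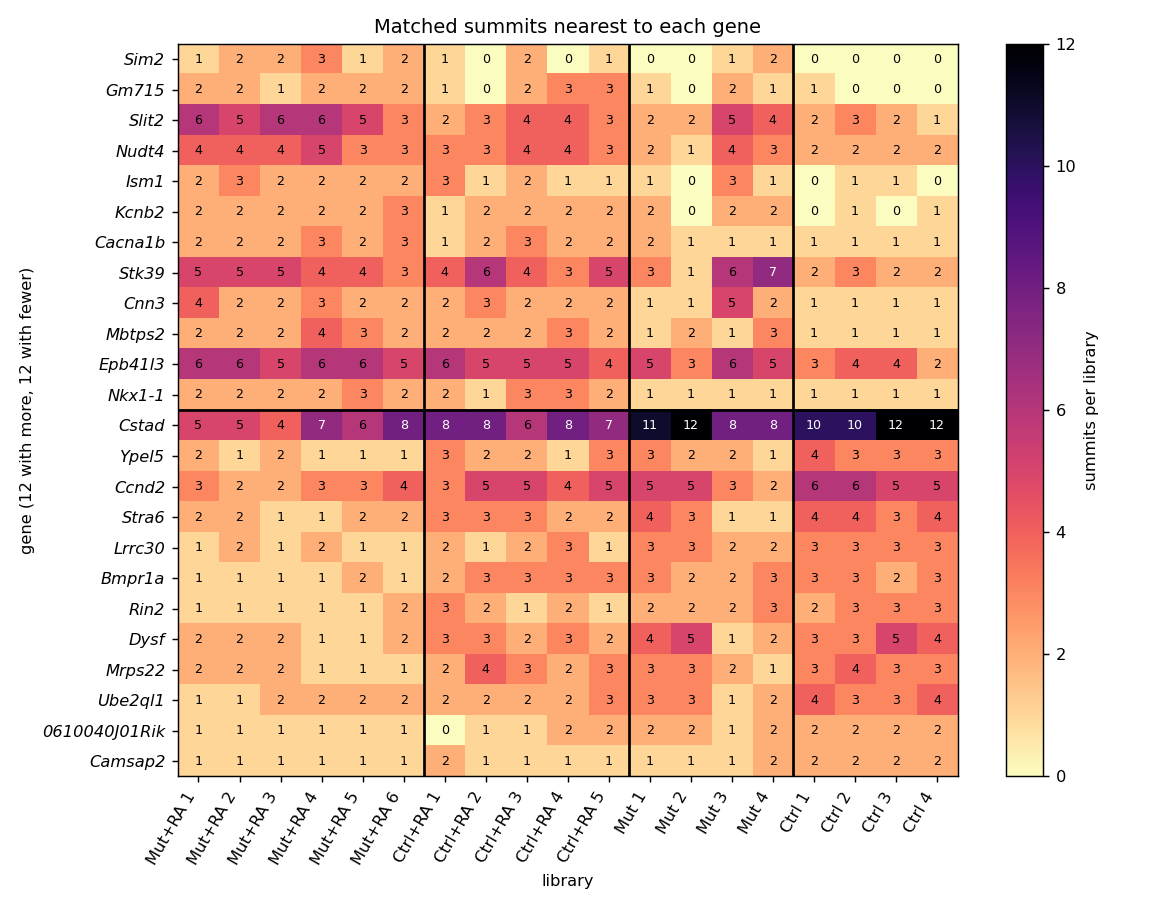
Matched summits nearest to each of 24 genes in all 19 libraries, the 12 of lowest p among those where mutants on the RA diet (Mut+RA) had more summits and the 12 of lowest p among those where they had fewer; numbers and colour give summits per library. Mutants on the RA diet are at the left and controls at the right, with controls on the RA diet (Ctrl+RA) and mutants (Mut) between them. Mutants 3 and 4 carry numbers closer to those of the mutants on the RA diet than mutants 1 and 2 do at genes such as Slit2 and Stra6.

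These counts depend on matching the lists. When all deposited summits were used and each log2 difference was taken relative to the median of all genes, which that setting moved to -0.56, 8 of the 12 leading genes with more summits and 2 of the 12 with fewer had the opposite sign. With a minimum score of 5 (median -0.68) the numbers were 9 and 2. Slit2, Ism1 and Cnn3 kept their direction under both settings, as did 9 of the genes with fewer summits, while Ccnd2 did not under either. With lists matched at the length of the next shortest one, 2 of the 12 with more (Gm715 and Mbtps2) and 4 of the 12 with fewer (Ccnd2, Lrrc30, 0610040J01Rik and Camsap2) had the opposite sign.

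No tested gene on the Notch pathway list, a pathway the study addresses, passed even the unadjusted threshold. Of 30 genes 22 were tested, 11 with positive and 11 with negative differences, 0 with an unadjusted p below 0.05, and a median log2 difference of 0.01, against -0.04 over all genes. The receptor gene Notch1 had 5, 5, 4, 4, 7 and 7 summits in mutants on the RA diet and 5, 6, 6 and 6 in controls (log2 difference -0.13, SE 0.16, limma adjusted p = 0.770). Notch2 averaged 7.83 ± 1.17 (SD) in the 6 mutants on the RA diet and 6.50 ± 1.29 (SD) in the 4 controls, and SDs of other genes are over the same libraries. The ligand genes Jag1 and Dll1 had log2 differences of 0.02 and -0.01. Rbpj, which encodes the DNA-binding partner of the Notch intracellular domain, averaged 4.17 ± 0.98 in mutants on the RA diet and 3.50 ± 0.58 in controls. The target genes Hes1, Hes5 and Hey1 averaged 6.67, 4.67 and 2.17 in mutants on the RA diet, against 5.50, 4.25 and 2.00 in controls (log2 differences 0.26, 0.11 and 0.08, limma adjusted p = 0.560 to 0.819). A p above the threshold does not show that these loci were equal.

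Of 28 retinoic acid signalling genes 18 were tested, 9 with positive and 9 with negative differences. At an unadjusted p below 0.05, 1 had more summits (Nrip1, the gene of a nuclear receptor corepressor) and 1 had fewer (Stra6). Among all genes tested, 4.66% had more and 6.50% fewer at that level. Nrip1 averaged 3.33 ± 0.82 in mutants on the RA diet and 2.25 ± 0.50 in controls (log2 difference 0.46, limma adjusted p = 0.372). The receptor genes Rara and Rarb averaged 2.83 ± 0.75 and 2.83 ± 0.41 in mutants on the RA diet, against 3.25 ± 0.50 and 2.25 ± 0.96 in controls (log2 differences -0.19 and 0.35, limma adjusted p = 0.729 and 0.583). Rarb, a well known direct target of retinoic acid, had 3, 3, 3, 2, 3 and 3 summits in mutants on the RA diet and 1, 2, 3 and 3 in controls, which overlap. Aldh1a2, the enzyme that makes retinoic acid, had 1, 1, 1, 2, 1 and 2 in mutants on the RA diet and 1 in each control. Crabp2, a retinoic acid carrier, had 1 in every library, and Cyp26b1, which degrades it, had 1, 1, 2, 0, 1 and 0 in mutants on the RA diet and 1 in each control. Neither met the conditions for a test. Meis2, a homeobox gene responsive to retinoic acid, had 10 to 15 in mutants on the RA diet and 10 to 12 in controls (log2 difference 0.19, limma adjusted p = 0.543).

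Radial glia and neural stem cell genes had 25 tested members, 18 with positive and 7 with negative differences and a median log2 difference of 0.08, against 45.3% positive and a median of -0.04 over all genes. At an unadjusted p below 0.05, 4 had more summits (Sox2, Pax6, Gli3 and Fgfr2) and 2 fewer (Mfge8 and Hopx), against 4.66% and 6.50% of all genes, and none passed adjustment. Sox2, a transcription factor that keeps progenitors undifferentiated, had 7, 8, 10, 8, 9 and 8 in mutants on the RA diet and 8, 6, 5 and 7 in controls (log2 difference 0.35, SE 0.13, limma adjusted p = 0.332). Controls on the RA diet had 8 to 10 and mutants 5, 7, 10 and 9. Pax6, a regulator of dorsal progenitors, had 10, 10, 8, 10, 12 and 9 in mutants on the RA diet and 9, 8, 8 and 7 in controls (log2 difference 0.28, SE 0.11, limma adjusted p = 0.396). Mfge8, which encodes a secreted glycoprotein of radial glia, had 2 in every mutant on the RA diet and 3 in every control (log2 difference -0.49, limma adjusted p = 0.159), with an SE borrowed from other genes because neither group varied. Emx2, a dorsal patterning gene, averaged 6.67 ± 1.51 in mutants on the RA diet and 5.25 ± 0.50 in controls. Prom1, the sorting marker, had 1 to 2 in mutants on the RA diet and 1 in each control.

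Genes of intermediate progenitors and neurons went in both directions, with 10 positive and 11 negative differences among 21 tested and a median of -0.10. At an unadjusted p below 0.05, 1 had more summits and 4 had fewer, against 4.66% and 6.50% of all genes tested. Neurog2 had 5 in every mutant on the RA diet and 4 in every control (log2 difference 0.29, limma adjusted p = 0.293), which matches the additional region described above, and here too the SE is borrowed. Those with fewer included Sstr2, Bcl11b and Neurod4, which encode a somatostatin receptor and transcription factors of projection or differentiating neurons. Bcl11b averaged 6.17 ± 0.41 in mutants on the RA diet and 7.50 ± 0.58 in controls. Eomes and Tbr1, which mark intermediate progenitors and deep-layer neurons, had differences of 0.11 and 0.21 (limma adjusted p = 0.823 and 0.770).

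In the remaining lists a few genes of patterning stood at the edges. Among all genes tested, 45.3% of differences were positive. At an unadjusted p below 0.05, 4.66% had more summits and 6.50% fewer. Of 25 Wnt and BMP genes tested, 9 differences were positive and 16 negative. Lef1, the transcription factor of canonical Wnt signalling, had 2, 3, 3, 5, 2 and 4 summits in mutants on the RA diet and 1, 2, 1 and 1 in controls (log2 difference 1.05, SE 0.24, limma adjusted p = 0.0949). Its mean was 4.25 in mutants without the diet and 2.00 in controls on the diet. Bmpr1a and Dkk3, a gene of the Dickkopf family, had fewer at an unadjusted p below 0.05. Of 17 ganglionic eminence and interneuron genes tested, 2 had more summits (Olig1 and Sp8) and 2 fewer (Olig2 and Lhx8) at that level. Olig1 averaged 4.50 ± 1.38 in mutants on the RA diet and 2.50 ± 0.58 in controls, whereas its neighbour Olig2 averaged 1.00 ± 0.89 in mutants on the RA diet and 2.75 ± 0.50 in controls. Summits between these neighbours go to whichever gene end is nearer. Of 10 Hedgehog genes tested, Hhip and Gli3 had more and Sufu fewer at that level, and in the lists of cell cycle and of cortical hem and choroid plexus genes Ccnd2 and Lhx5 had fewer.

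Lists for other cell types gave the following. Of 10 meningeal fibroblast genes tested, 7 had positive and 3 negative differences, with a median log2 difference of 0.23, and 3 had more summits at an unadjusted p below 0.05 (Dcn, Zic2 and Col1a2), against 45.3% positive and 4.66% with more at that level over all genes. Zic2 is also used by forebrain progenitors. Col1a2, a collagen gene, averaged 4.50 ± 1.52 in mutants on the RA diet and 2.75 ± 0.96 in controls (log2 difference 0.60, limma adjusted p = 0.407). Of 9 endothelial genes tested, Ets1 and Emcn had more at that level and 6 of the 9 differences were negative. Neither mural (2 tested), microglia and macrophage (3 tested) nor erythroid genes (1 tested) had any at that level. The part of such cells in the differences above was not tested. In these bulk libraries, fewer cells of a type and weaker opening per cell cannot be told apart.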

How the data were processed

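Bulk ATAC-seq peak summits of 10 libraries were analysed, with 9 further libraries used for chaining regions and reading them back. The deposited files list summits that the authors called per library with MACS2, with −log10 q as score (lowest value about 1.30), per the files and the submitters' processing notes, which also name BWA, Signac, DiffBind, mm10 and GRCm38 without versions. Kits for ATAC-seq are named in the labels' protocols. Read counts were not used here, so depth and counting intervals are unknown, and scores depend on depth.

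Each library was reduced to its 29112 best-scoring summits. Regions were chained at 200 bp over 19 libraries and kept with summits from at least 2 of the 10. Genes came from a RefSeq table of GRCm38.p6 without strand (21887 protein-coding genes), and start sites from a promoter table covering 17492 of them. For genes without one, either gene end was used. Region and start-site presence was tested with two-sided Fisher's exact tests, library values with exact permutation tests, and summits per gene with limma 3.58.1 in R 4.3.3 (trend, robust, 10 libraries, pseudocount 0.5). Of 11178 genes averaging 1 summit or more, all entered but 4158 with the same number in all 10. P-values were adjusted by Benjamini-Hochberg over everything tested. Scripts ran in Python 3.11.15 and were checked on simulated data.

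The members and gene lists were chosen with earlier results of these data known. Genes named are the 12 with the lowest p in each direction and a fixed set, and some genes are not reported here. Regions named are, in each direction, the 8 with the best rank, those with no deposited summit in the other group first, and those with a listed gene as nearest within 100 kb. Alternatives varied list length, minimum score, chaining, windows, pseudocount, filter, model and libraries. The next-shortest list (48323), chromosome Y, similar length, median score, gene ends and median-centred settings were chosen after seeing the data.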

Additional observations from a re-analysis of the deposited data

Results flagged for a closer look

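Among 108 sets of library values of 1 group examined, 4 held a library far from its group by Dixon's test at 95%. Chance alone flags some such sets. How many is not known, because gene counts spanning at most 1 summit are among the 108 and could not be flagged. Summit counts are also small whole numbers with ties, for which this test is only a guide. Mutant 6 on the RA diet had 41.2% of its matched summits within 1 kb of a gene end or start site, whereas the other mutants on the diet had 34.0 to 36.4%. The same library had 3 summits nearest to Slit2, against 5 to 6 in the other mutants on the diet, and 5 nearest to Tbr1, against 2 to 3. Mutant 4 on the RA diet, with the shortest list, had 3 summits nearest to Hes5, against 5 in each of the others.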

How the results depend on the processing

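Over the alternatives tried, 85 of the 1136 gene results had the opposite sign from the main fit, 43 passed the threshold and 1008 kept direction and side. Leaving out each library in turn, the log2 difference ranged over -0.10 to 0.077 for Dll1, -0.037 to 0.33 for Foxc1, -0.073 to 0.076 for Jag1 and -0.053 to 0.35 for Tbr1. With all deposited summits, relative to the median of all genes, the log2 differences with the opposite sign were -0.43 for Sim2, -0.23 for Gm715, -0.12 for Nudt4, -0.050 for Cacna1b, -0.25 for Stk39, -0.068 for Mbtps2, -0.20 for Epb41l3, -0.21 for Nkx1-1, 0.21 for Ccnd2, 0.012 for 0610040J01Rik, -0.16 for Sox2, 0.18 for Dll1, -0.011 for Rbpj, -0.28 for Rarb, -0.23 for Aldh1a2, -0.033 for Meis2, -0.41 for Foxc1, -0.18 for Prom1, -0.038 for Eomes and -0.15 for Lef1. With a minimum score of 5, again relative to the median, they were -0.72 for Sim2, -0.15 for Gm715, -0.16 for Nudt4, -0.14 for Kcnb2, -0.11 for Cacna1b, -0.15 for Stk39, -0.10 for Mbtps2, -0.0032 for Epb41l3, -0.054 for Nkx1-1, 0.17 for Ccnd2, 0.10 for Stra6, -0.37 for Sox2, 0.41 for Dll1, -0.046 for Rbpj, 0.23 for Rara, -0.58 for Rarb, -0.21 for Aldh1a2, -0.70 for Foxc1, -0.053 for Prom1, -0.064 for Eomes, -0.28 for Tbr1 and -0.14 for Lef1. With lists matched at the next shortest one they were -0.16 for Gm715, -0.018 for Mbtps2, 0.29 for Ccnd2, 0.29 for Lrrc30, 0.29 for 0610040J01Rik, 0.023 for Camsap2, 0.12 for Notch1, -0.18 for Rbpj, -0.036 for Rarb, -0.54 for Foxc1 and -0.052 for Tbr1. With the median score as a covariate they were -0.20 for Jag1, -0.15 for Aldh1a2, -0.36 for Foxc1, -0.24 for Prom1 and -0.045 for Emx2. With list length as a covariate they were -0.15 for Jag1, -0.060 for Aldh1a2, -0.28 for Foxc1 and -0.11 for Prom1. With lists of 14556 summits they were 0.081 for Notch1, 0.31 for Dll1, -0.10 for Rbpj, 0.39 for Rara and -0.024 for Neurog2. With summits counted in gene bodies they were 0.27 for Dll1 and -0.081 for Hes5. Within 20 kb of a gene end they were 0.27 for Dll1 and -0.12 for Meis2. In libraries without a chromosome Y summit they were -0.18 for Jag1, -0.020 for Eomes and -0.039 for Tbr1. In libraries with lists of similar length they were -0.060 for Jag1 and -0.37 for Foxc1. With the replicate number as a block it was -0.018 for Jag1.

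The number of genes called by limma was 0 to 23 when each library was left out in turn, 2 with a list of 14556 summits, 3 with a minimum score of 5, 1 with a pseudocount of 1, 3 without the filter on the mean, 2 with gene bodies, 4 with 19 libraries in the fit, 14 without the robust step, 1 with the median score as a covariate, 4 in libraries without a chromosome Y summit, 1 at the next shortest list and 538 in libraries of similar length, where 503 genes had no spread within either group. The median of all genes was -0.56 with all deposited summits and -0.68 with the minimum score.

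Leaving out 1 library at a time, regions in all mutants on the RA diet and no control numbered 61 to 293, the opposite 136 to 255, and start-site genes 6 to 18. These counts were 22, 41 and 11 with a list of 14556 summits, 17, 1261 and 31 with all deposited summits, 197, 341 and 19 without libraries that have chromosome Y summits, and 1666, 1434 and 268 with lists of similar length. The counts of regions were 9 and 1669 with a minimum score of 5, and 179 and 329 at the next shortest list. The separation of the groups was 0.00979 to 0.0553 when each library was left out (exact permutation p = 0.0159 to 0.321), 0.0298 with chaining at 500 bp (exact permutation p = 0.0429) and 0.0397 at the next shortest list (exact permutation p = 0.0238). The difference in deposited summits was -41773 to -26774 when each library was left out (exact permutation p = 0.0476 to 0.202). The difference in the share near gene ends or start sites was -1.20 to 0.72 percentage points, and 7.47 with all deposited summits (exact permutation p = 0.0952). The cause of these changes was not tested, except that shorter and fewer lists change what can be counted.

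The numbers 1 to 4 occur in the titles of both groups, and whether equal numbers mark pairs is not known. The correlation of deviations from the group means was 0.000520, -0.0631, 0.0795 and -0.00934 for the same numbers. Only for number 3 was this above the highest correlation with another number (0.0795 against 0.0538). With the replicate number as a block limma called 119 genes, 52 of them with more summits, and 473 genes had no spread. The difference in deposited summits with the replicate number as a block was -28194 and that in the share -1.44 (exact permutation p = 0.5 and 0.375 over the 4 pairs).

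Depth is unknown, and the score difference between the groups limits what these lists can show. Lower-ranked or neighbouring summits in the group that lacks a region are frequent, and with 6 against 4 libraries at least 9.53% of regions would have to separate completely for an adjusted call.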

Other observations

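Without mutant 6 on the RA diet, limma called 23 genes. Besides those described above they included genes with more summits that were picked here after their values were seen. Eya4, which encodes a transcription cofactor and phosphatase, had a log2 difference of 1.40 (SE 0.19, limma adjusted p = 0.00740), Suclg2, of a mitochondrial ligase, 1.05, and Sdr16c5, of a retinol dehydrogenase, 2.42, each with the same adjusted p of 0.00740. Map2, of a neuronal microtubule-associated protein, differed by 0.76 on the log2 scale (limma adjusted p = 0.0141) and Angpt1, of angiopoietin 1, by 1.24 (limma adjusted p = 0.0153). With all 10 libraries none of these genes was called. Over these, Eya4 averaged 4.83 ± 1.72 (SD) summits in the 6 mutants on the RA diet and 1.75 ± 0.50 (SD) in the 4 controls. Map2 averaged 7.50 ± 2.43 in mutants on the RA diet and 4.75 ± 0.50 in controls, and Angpt1 4.33 ± 1.51 in mutants on the RA diet and 1.75 ± 0.50 in controls. Sdr16c5 had 0 to 3 summits in mutants on the RA diet and 0 in each control, so its log2 difference depends on the pseudocount.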
